A study of Rattus norvegicus with 12 samples.

Results

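Cytochrome P450 genes of families 1 to 4 were read by 51 probe sets in the livers of 12 male rats that ate casein, complete dairy or leucine-supplemented casein. A probe set was taken as a member when the platform annotation gave it exactly 1 gene symbol and that symbol began with Cyp1, Cyp2, Cyp3 or Cyp4 followed directly by a letter. The 51 members were found among 15310 probe sets with exactly 1 symbol, of 29214 in the value table. Family 1 had 3 members, family 2 had 31, family 3 had 5 and family 4 had 12, and each member stood for a gene of its own. The symbols of all 51 were the same in the RefSeq gene table, which lists Cyp2s1-ps1 as a transcribed pseudogene.

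The animals were rats of the Diet-induced obese Sprague-Dawley strain, 12 weeks old when the diets began and 20 weeks old when the livers were taken. All 3 diets were rich in fat and sucrose, held 4.6 kcal per gram, drew 10% of their energy from protein and were eaten freely for 8 weeks. Casein was the only protein of the control diet, skim milk powder supplied that of the dairy diet, and the leucine diet took 7.1% of energy from casein and 2.9% from free leucine. Each diet had 4 liver samples, with 1 array (Affymetrix Rat Gene 1.0 ST) for each. No group ate a low fat diet. In the leucine diet, the lower share of casein and the free leucine cannot be told apart, and in the dairy diet neither can milk protein and whatever else skim milk powder contains. Values are log2 array signals, so a difference of 1 stands for a doubling; the signals of different probe sets were not set against each other.

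P450 enzymes are heme proteins of the endoplasmic reticulum that insert an oxygen atom into their substrates, with electrons passed on from NADPH by P450 reductase. Families 1 to 3 clear drugs, pollutants and steroids, and several of their genes are switched on by the receptors AHR (family 1), CAR (the Cyp2b genes) and PXR (the Cyp3a genes). Many family 4 enzymes, and the epoxygenases of the Cyp2c and Cyp2j subfamilies, act on fatty acids such as arachidonic acid. In rat liver a further group of P450 genes differs between the sexes because males release growth hormone in pulses and females more evenly.

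With dairy, the median P450 gene lay lower than with casein. Of the 51 members, 39 had a lower mean with dairy and 12 a higher one, and the median difference was -0.26 on the log2 scale, against -0.02 over all 15310 probe sets, of which 53.1% were lower. Leaving out dairy replicate 1 gave a median of -0.43 over the members, and leaving out casein replicate 2 gave -0.16. No member passed the adjusted threshold of 0.05 in limma, where 13 probe sets of the whole table did (0.0849%). At an unadjusted p under 0.05, 9 members were lower, or 17.6% of the 51, where 6.32% of all probe sets were called that way. None was higher at that threshold, where 4.59% of all probe sets were. In 2 members, Cyp2c12 and Cyp3a9, every dairy array lay below every casein array, which is 3.92% of the members against 2.18% of all probe sets. No member had every dairy array above every casein array (2.09% of all probe sets).

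Limma's estimated array weights gave dairy replicate 2 the most weight and casein replicate 4 and dairy replicate 3 the least, and with them 11 members passed the adjusted threshold, 10 of them lower, in a table where 1182 of 15310 probe sets then passed. Without casein replicate 4, 1 member passed, Cyp2b3, which was higher with dairy, as did 237 probe sets of the table. With dairy replicate 1 left out, the members lower at an unadjusted p under 0.05 numbered 14 in place of 9. Of all probe sets, 6.74% were then lower at that threshold in place of 6.32%.

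The level of a probe set moved with this difference. Over all probe sets with a mean signal above the median of 5.33, 64.7% were lower with dairy, their median difference was -0.14 and 10.2% were lower at an unadjusted p under 0.05. In the other probe sets 41.6% were lower and 2.42% passed that threshold. Among the 35 members above that level 30 were lower, with a median of -0.35 and 8 at an unadjusted p under 0.05. Among the 16 at or below it 9 were lower, the median was -0.03 and 1 passed. The part that signal level has in the members' difference was not tested beyond this split.

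**Figure D1:**
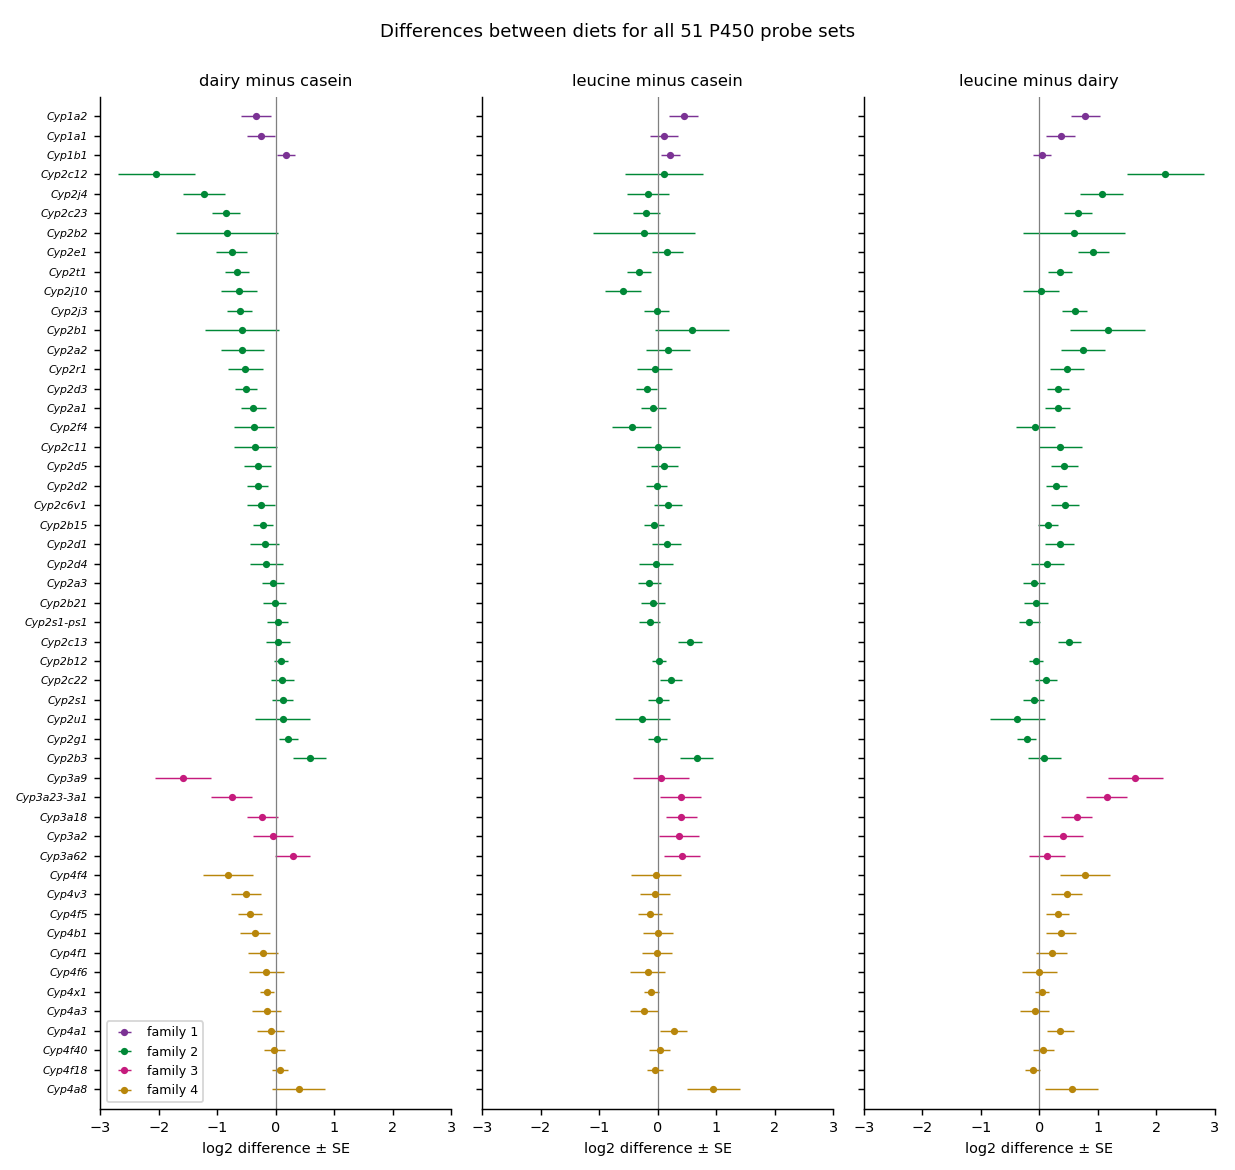
Fitted log2 differences of all 51 P450 probe sets, with bars of 1 standard error, for dairy minus casein, leucine minus casein and leucine minus dairy. Colours mark the 4 families; most points lie left of 0 in the first panel (39 of 51) and right of 0 in the third (40 of 51), and these panels share the 4 dairy arrays.

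Of the 9 members at an unadjusted p under 0.05, the smallest p belonged to Cyp2c23, an arachidonic acid epoxygenase. It read 12.53, 12.43, 12.07 and 11.91 with casein, 12.02, 11.40, 11.07 and 11.06 with dairy, and 12.08, 12.38, 11.71 and 12.02 with leucine. Only dairy replicate 1 reached into the casein range. The difference between dairy and casein was -0.85 ± 0.23 (SE), 1.81-fold lower, with an unadjusted p of 0.00309 and an adjusted p of 0.250 in limma.

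Cyp2j4, an epoxygenase of the Cyp2j subfamily, read 7.73, 7.99, 7.42 and 6.96 with casein and 7.26, 6.52, 5.26 and 6.16 with dairy. Its leucine arrays read 7.82, 7.09, 7.08 and 7.45. Again dairy replicate 1 was the only dairy array inside the casein range, and the difference was -1.23 ± 0.36 (SE), 2.34-fold lower (adjusted p 0.295). The related epoxygenase Cyp2j3 read 9.06, 8.95, 9.19 and 9.19 with casein, 9.07, 8.05, 8.08 and 8.72 with dairy, and 9.02, 9.27, 8.89 and 9.16 with leucine. Its casein arrays lay close together (SD 0.117) while its dairy arrays spread (SD 0.499), and the difference was -0.62 ± 0.21 (SE), 1.53-fold lower (adjusted p 0.347). Cyp2j10, the third member of the subfamily, had its highest value in casein replicate 3 (6.14), and the other 11 arrays lay between 4.22 and 5.05. All 3 Cyp2j members thus had lower means with dairy than with casein, with a median of -0.62, the value of Cyp2j10. Without casein replicate 3 the Cyp2j10 difference was -0.26. Its mean was also lower with leucine than with casein, by a like amount (-0.60 ± 0.31 SE).

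Cyp2e1, which oxidises ethanol, acetone and other small molecules, read 12.04, 12.16, 11.72 and 12.39 with casein, 12.01, 10.60, 11.34 and 11.36 with dairy, and 12.63, 12.20, 11.90 and 12.27 with leucine. Of the 4 dairy arrays 3 lay below all casein arrays. The difference was -0.75 ± 0.27 (SE), 1.68-fold lower (adjusted p 0.355).

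**Figure D2:**
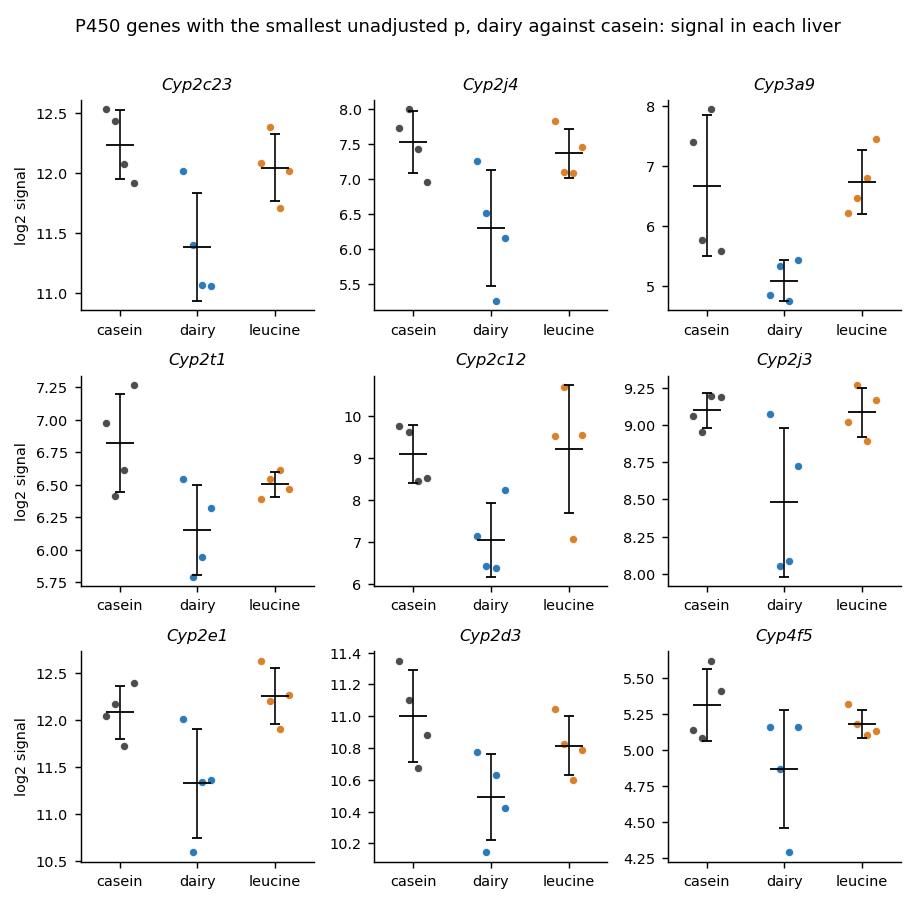
Log2 signal in each liver for the 9 P450 genes with an unadjusted p under 0.05 in dairy against casein; points are arrays, the long bar is the mean of 4 and the whiskers are 1 SD. All 9 dairy means lie below the casein means, and the groups do not overlap for Cyp3a9 and Cyp2c12.

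Only 2 members had dairy and casein arrays that did not overlap, 3.92%, which is not far from the 2.18% of all probe sets. Both are known as genes of female rat liver. All rats here were labelled male. Cyp2c12, a steroid sulfate hydroxylase that in adult rats is mainly made by females, read 9.77, 9.63, 8.47 and 8.54 with casein, 7.15, 6.43, 6.40 and 8.25 with dairy, and 9.54, 10.69, 7.08 and 9.55 with leucine. Every dairy array lay below the lowest casein array, and 1 leucine array (replicate 3) lay inside the dairy range. The difference between dairy and casein was -2.04 ± 0.66 (SE), 4.12-fold lower, with a 95% confidence interval of -3.48 to -0.60 (adjusted p 0.320). Among the members no gene differed more between these diets. Whether the Cyp2c12 probe set also reads other Cyp2c genes was not tested.

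Cyp3a9, a steroid hydroxylase of the Cyp3a subfamily found more in females, read 7.40, 5.76, 7.94 and 5.59 with casein, 4.84, 5.32, 4.75 and 5.43 with dairy, and 6.21, 6.47, 6.80 and 7.45 with leucine. The dairy arrays were the 4 lowest of the 12. The casein arrays formed a high and a low pair, so that the gap to dairy was narrow for replicates 2 and 4. The difference was -1.59 ± 0.48 (SE), 3.00-fold lower (adjusted p 0.295). Cyp2a1, a testosterone hydroxylase also found more in females, had means of 10.01 ± 0.344 (SD, n = 4) with casein and 9.63 ± 0.404 with dairy. Of the 3 measured genes of the list of female-biased P450 genes, 3 were lower with dairy, where 53.1% of all probe sets were. Those that passed an unadjusted p of 0.05 were the same 2 genes, Cyp2c12 and Cyp3a9. Of all probe sets, 6.32% were lower at that threshold. Cyp2c7 was not analysed here. Cyp3a62, which is also known from female liver but is not on that list, was higher with dairy by 0.29 ± 0.31 (SE).

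The list of male-biased P450 genes lay closer to 0, with 4 of 5 measured genes lower with dairy, none at an unadjusted p under 0.05 and a median of -0.23. Cyp2c11, the main male testosterone hydroxylase, read 12.00, 12.54, 11.30 and 10.68 with casein, 11.67, 11.19, 11.42 and 10.85 with dairy, and 12.22, 11.82, 11.06 and 11.45 with leucine, and the 3 diets overlapped. Its difference between dairy and casein was -0.35 ± 0.37 (SE), with an interval of -1.14 to 0.45, and it was -0.04 without casein replicate 2 and -0.90 with array weights. Cyp2a2, which hydroxylates testosterone in males, had means of 10.35 ± 0.586 (SD, n = 4) with casein, 9.78 ± 0.787 with dairy and 10.52 ± 0.343 with leucine. Whether the female-biased and male-biased genes differ in their response was not tested.

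Promoter entries of 4 genes are shown because these genes carry the largest differences (Cyp2c12 and Cyp3a9) or share a motif that PXR is known to bind (Cyp3a2 and Cyp3a23-3a1). RefSeq promoter entries of the rat genome build GRCr8 were found for 44 of the 51 members. Each sequence below is the 250 bases before the start that the entry uses, 5′ to 3′ along the gene's strand, and capitals mark matches on either strand. The letters searched were TATAAA for the TATA box, then AGGTCA for the core that many nuclear receptors bind, and finally AGTTCA for the core of PXR and CAR sites, which reads TGAACT on the opposite strand. The 4 lie on the minus strand at chr1:248677035-248677284 (Cyp2c12), chr12:21960161-21960410 (Cyp3a9), chr12:14343858-14344107 (Cyp3a2) and chr12:14398804-14399053 (Cyp3a23-3a1). An entry's start need not be the outer end of the RefSeq gene record: it was for 22 of the 44 members, Cyp3a9 and Cyp3a23-3a1 among them, and lay inside the record for the other 22. In Cyp2c12 it lay 4911 bases inside (gene record chr1:248619887-248681945) and in Cyp3a2 29 bases inside, so the Cyp2c12 window falls within the gene as recorded.
Cyp2c12: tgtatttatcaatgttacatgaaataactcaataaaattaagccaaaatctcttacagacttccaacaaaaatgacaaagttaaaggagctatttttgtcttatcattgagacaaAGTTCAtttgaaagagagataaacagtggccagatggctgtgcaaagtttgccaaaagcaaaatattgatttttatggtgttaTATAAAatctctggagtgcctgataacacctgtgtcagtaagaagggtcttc
Cyp3a9: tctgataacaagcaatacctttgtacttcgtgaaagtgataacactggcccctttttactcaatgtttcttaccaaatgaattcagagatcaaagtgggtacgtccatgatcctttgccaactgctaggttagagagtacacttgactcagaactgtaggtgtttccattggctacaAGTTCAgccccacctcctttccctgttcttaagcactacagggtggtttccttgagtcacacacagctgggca
Cyp3a2: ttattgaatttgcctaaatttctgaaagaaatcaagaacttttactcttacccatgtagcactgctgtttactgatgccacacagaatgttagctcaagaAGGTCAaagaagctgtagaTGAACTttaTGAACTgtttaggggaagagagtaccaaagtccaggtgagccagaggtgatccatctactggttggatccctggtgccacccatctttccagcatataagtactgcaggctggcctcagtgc
Cyp3a23-3a1: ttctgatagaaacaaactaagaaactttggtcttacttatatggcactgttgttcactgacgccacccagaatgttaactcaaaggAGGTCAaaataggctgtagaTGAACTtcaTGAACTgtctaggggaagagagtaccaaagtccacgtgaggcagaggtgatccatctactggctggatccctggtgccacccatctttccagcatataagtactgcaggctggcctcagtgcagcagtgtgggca

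In Cyp3a2 and Cyp3a23-3a1 the capitals show 2 copies of TGAACT in 1 direction with 3 bases between, preceded by AGGTCA. This arrangement of AGTTCA was found in 2 of 27457 promoters of the same length (0.00728%), and these were the 2 genes named. Neither Cyp3a9 nor Cyp2c12 holds it, although each has 1 copy of AGTTCA. Counted over both strands, AGTTCA was in 11 of the 44 member promoters (25.0%, against 12.1% of all), the receptor core AGGTCA in 14 (31.8% against 13.7%) and the TATA box in 13 (29.5% against 13.1%). GCGTG, the core that AHR binds, was in 11 (25.0% against 27.2%), GTTAAT, part of the HNF1 site, in 4 (9.09% against 6.46%), and TTCNNNGAA, the form bound by STAT5, in 4 (9.09% against 7.52%). The windows of Cyp3a2 and Cyp3a23-3a1 are much alike, as are those of Cyp2b1 and Cyp2b2, so these counts are not of independent sequences. A match describes letters in a window. Binding was not measured here, and a part of these matches in the differences was not tested. In the 4 windows shown no match overlaps another.

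The Cyp3a genes, the main drug and steroid hydroxylases that PXR induces, did not all move alike in dairy against casein. The median over the 5 members was -0.23 with dairy, 4 of 5 were lower, and only Cyp3a9 passed an unadjusted p of 0.05. That median was as low as -0.46 when casein replicate 4 was left out and as near 0 as -0.03 when casein replicate 2 was. Cyp3a23-3a1, known for its induction by PXR ligands, read 9.90, 10.80, 9.55 and 9.25 with casein, 9.75, 8.76, 9.30 and 8.67 with dairy, and 11.01, 10.09, 10.02 and 9.96 with leucine. Its difference between dairy and casein was -0.75 ± 0.35 (SE), 1.69-fold lower (adjusted p 0.461), and it was -0.45 without casein replicate 2 and -1.33 with array weights.

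Cyp3a2, a male-biased testosterone hydroxylase, read 10.92, 11.51, 10.77 and 9.66 with casein, 10.80, 10.03, 11.05 and 10.81 with dairy, and 11.38, 10.88, 10.79 and 11.26 with leucine. Casein replicate 4 was the lowest of the 12 and the diets overlapped. The difference between dairy and casein was -0.05 ± 0.34 (SE, 95% interval -0.78 to 0.69), and its sign turned when casein replicate 1, casein replicate 2 or dairy replicate 2 was left out. So Cyp3a2 and Cyp3a23-3a1, which share the repeat printed above, had differences of -0.05 and -0.75; the difference between them was not tested. Cyp3a18, also male-biased, had means of 10.34 ± 0.519 (SD, n = 4) with casein, 10.11 ± 0.251 with dairy and 10.74 ± 0.387 with leucine. Cyp3a62, found mainly in the intestine and in female liver, had means of 5.12 ± 0.333 with casein, 5.41 ± 0.591 with dairy and 5.54 ± 0.481 with leucine.

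The Cyp2b genes that CAR induces varied more from liver to liver than between diets. Cyp2b2 read 6.69, 7.85, 4.58 and 4.98 with casein, 6.01, 5.67, 4.29 and 4.80 with dairy, and 8.49, 4.74, 5.12 and 4.82 with leucine. Cyp2b1 read 3.32, 4.51, 2.50 and 3.91 with casein, 3.28, 2.99, 2.82 and 2.85 with dairy, and 6.50, 3.63, 3.22 and 3.25 with leucine. Leucine replicate 1 and casein replicate 2 had the highest values of both genes, which are near-identical, so that which of them a probe set reads is uncertain. The differences between dairy and casein were -0.83 ± 0.87 (SE) for Cyp2b2 and -0.58 ± 0.64 for Cyp2b1, and the interval for Cyp2b2, from -2.72 to 1.06, leaves room for changes in either direction. Without casein replicate 2 they were -0.22 and -0.26.

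Cyp2b3, a liver member of the subfamily that is not induced by phenobarbital, ran the other way. It read 9.54, 9.26, 9.16 and 10.69 with casein, 10.55, 10.10, 10.12 and 10.21 with dairy, and 10.50, 10.49, 10.09 and 10.23 with leucine. Of the casein arrays 3 lay below all 8 others and casein replicate 4 lay above them. The difference between dairy and casein was 0.58 ± 0.28 (SE, adjusted p 0.472). Without casein replicate 4 it was 0.92 with an adjusted p of 0.0333 in limma, the 1 member called in that fit.

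**Figure D3:**
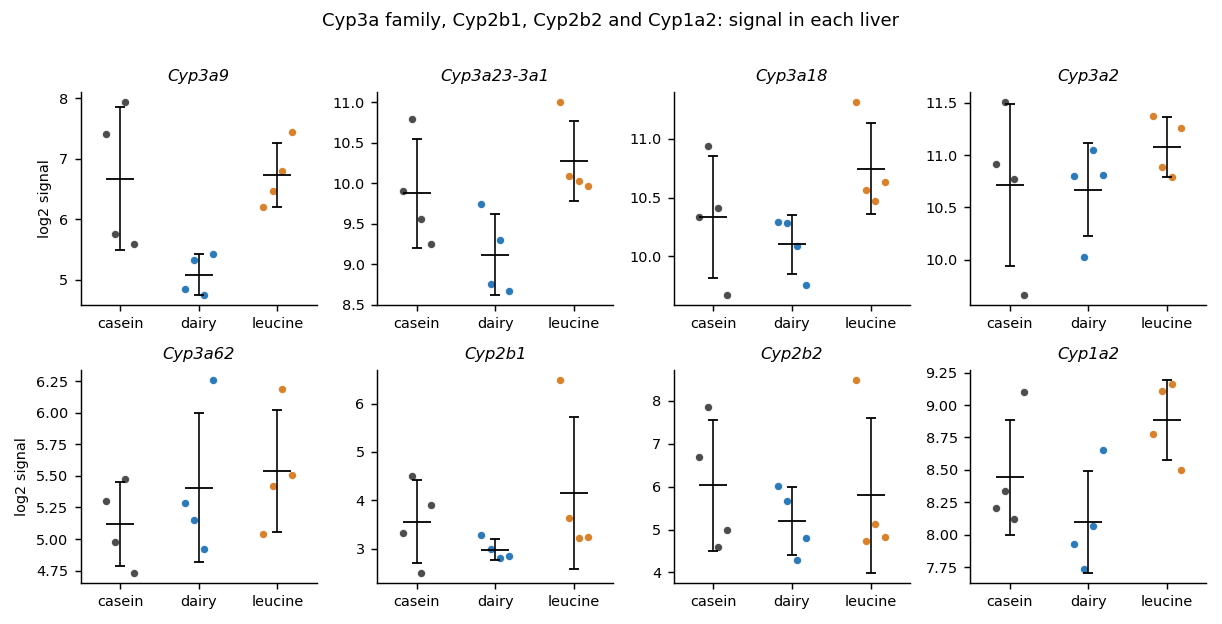
Log2 signal in each liver for the 5 Cyp3a genes, Cyp2b1, Cyp2b2 and Cyp1a2; points are arrays, the long bar is the mean of 4 and the whiskers are 1 SD. Leucine replicate 1 stands above the other leucine arrays for Cyp2b1 (6.50), Cyp2b2 (8.49) and Cyp3a23-3a1 (11.0), and the leucine and dairy arrays do not overlap for Cyp3a9, Cyp3a23-3a1 and Cyp3a18.

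The Cyp2d genes had lower means with dairy, and the Cyp2c genes not yet described lay on both sides of 0. Cyp2d3 read 11.35, 11.10, 10.67 and 10.88 with casein, 10.77, 10.14, 10.63 and 10.42 with dairy, and 11.05, 10.82, 10.60 and 10.79 with leucine, a difference between dairy and casein of -0.51 ± 0.18 (SE), 1.42-fold lower (adjusted p 0.365). All 5 Cyp2d members had lower means with dairy, with a median of -0.31, although Cyp2d4 turned sign without dairy replicate 4 (0.09), and Cyp2d3 alone passed an unadjusted p of 0.05. Cyp2d1, the debrisoquine hydroxylase, had means of 9.36 ± 0.397 (SD, n = 4) with casein, 9.17 ± 0.507 with dairy and 9.51 ± 0.101 with leucine. The Cyp2d genes are close copies in sequence, so their probe sets may share signal. Of the 6 Cyp2c members 4 were lower, among them Cyp2c12, Cyp2c23 and Cyp2c11. Cyp2c13 and Cyp2c22 were higher, by 0.04 ± 0.20 (SE) and 0.11 ± 0.19. Cyp2c6v1, a constitutive form that phenobarbital raises further, had means of 10.51 ± 0.475 with casein, 10.25 ± 0.402 with dairy and 10.69 ± 0.088 with leucine.

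Cyp2t1 read 6.97, 6.42, 6.62 and 7.27 with casein, 6.55, 5.79, 5.95 and 6.32 with dairy, and 6.39, 6.54, 6.62 and 6.47 with leucine. Only dairy replicate 1 reached the casein range, and the difference was -0.67 ± 0.21 (SE), 1.59-fold lower (adjusted p 0.315). Cyp2r1, which adds the first hydroxyl group to vitamin D, had means of 5.66 ± 0.617 (SD, n = 4) with casein, 5.14 ± 0.284 with dairy and 5.61 ± 0.412 with leucine. Its highest array was casein replicate 1 (6.55), and the diets overlapped.

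In family 1, the targets of AHR, 2 of 3 members were lower with dairy and none passed an unadjusted p of 0.05. Cyp1a2, the hepatic enzyme that clears caffeine, read 8.21, 8.34, 8.12 and 9.10 with casein, 7.93, 7.74, 8.07 and 8.65 with dairy, and 8.78, 9.10, 9.17 and 8.50 with leucine. In both the casein and the dairy group replicate 4 stood highest, and the difference was -0.34 ± 0.25 (SE, adjusted p 0.636). Cyp1a1, which oxidises polycyclic aromatic hydrocarbons, had means of 3.85 ± 0.332 (SD, n = 4), 3.60 ± 0.115 and 3.96 ± 0.534 with casein, dairy and leucine, with its highest value in leucine replicate 2 (4.73). Cyp1b1, mostly found outside the liver, had means of 2.73 ± 0.234, 2.90 ± 0.147 and 2.95 ± 0.220.

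Family 4 held most of the fatty acid ω-hydroxylases, and 10 of its 12 members were lower with dairy, with a median of -0.16 and 1 member at an unadjusted p under 0.05. That member was Cyp4f5, which read 5.14, 5.08, 5.62 and 5.41 with casein, 5.16, 4.87, 4.29 and 5.16 with dairy, and 5.32, 5.18, 5.10 and 5.13 with leucine. The difference was -0.44 ± 0.20 (SE, adjusted p 0.447), and the dairy and casein arrays overlapped. Cyp4f4 had the largest difference in the family, -0.81 ± 0.43, with 9.08, 9.23, 8.34 and 8.80 with casein and 9.28, 7.29, 8.58 and 7.05 with dairy. Its dairy arrays reached from below to above the casein range, and the difference was -0.48 without dairy replicate 4. Cyp4v3, a fatty acid ω-hydroxylase, had means of 8.02 ± 0.394 (SD, n = 4) with casein, 7.51 ± 0.429 with dairy and 7.98 ± 0.383 with leucine.

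The Cyp4a genes, which PPAR-alpha switches on, did not all lie on 1 side in dairy against casein: 2 of 3 measured genes were lower, with a median of -0.09, and Cyp4a8 was higher. Cyp4a1 had means of 9.35 ± 0.124 (SD, n = 4) with casein, 9.26 ± 0.368 with dairy and 9.62 ± 0.438 with leucine, and the difference of -0.09 had an interval of -0.58 to 0.41. Cyp4a3 had means of 11.96 ± 0.490, 11.81 ± 0.083 and 11.73 ± 0.411. Cyp4a8 read 5.60, 5.20, 5.17 and 5.48 with casein, 5.11, 6.21, 5.41 and 6.31 with dairy, and 5.03, 6.89, 7.52 and 5.82 with leucine, so that the leucine arrays held both its lowest and its highest value. Its difference between dairy and casein was 0.39 ± 0.45 (SE), with an interval of -0.59 to 1.38. Cyp4b1, which acts on short fatty acids and some toxins, had means of 6.10 ± 0.220, 5.75 ± 0.316 and 6.11 ± 0.563, and Cyp4f1, a hydroxylase of leukotrienes, 10.64 ± 0.229, 10.42 ± 0.618 and 10.63 ± 0.209. The Cyp4a genes are close copies of each other, and Cyp4a2 was not analysed here.

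The livers did not move in step within a diet. Dairy replicate 2 held the lowest of the 12 values for 14 members, and dairy replicates 3 and 4 for 8 each, while dairy replicate 1 did so for 2. Dairy replicate 1 was the highest of the 4 dairy arrays for 29 members. Among the leucine arrays replicate 1 was the highest for 28 members, and casein replicate 3 was the lowest casein array for 28. Dairy replicate 3 and casein replicate 4 also had the narrowest spread of values over the whole array (SD 2.07 and 2.14, against up to 2.33 elsewhere).

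**Figure D4:**
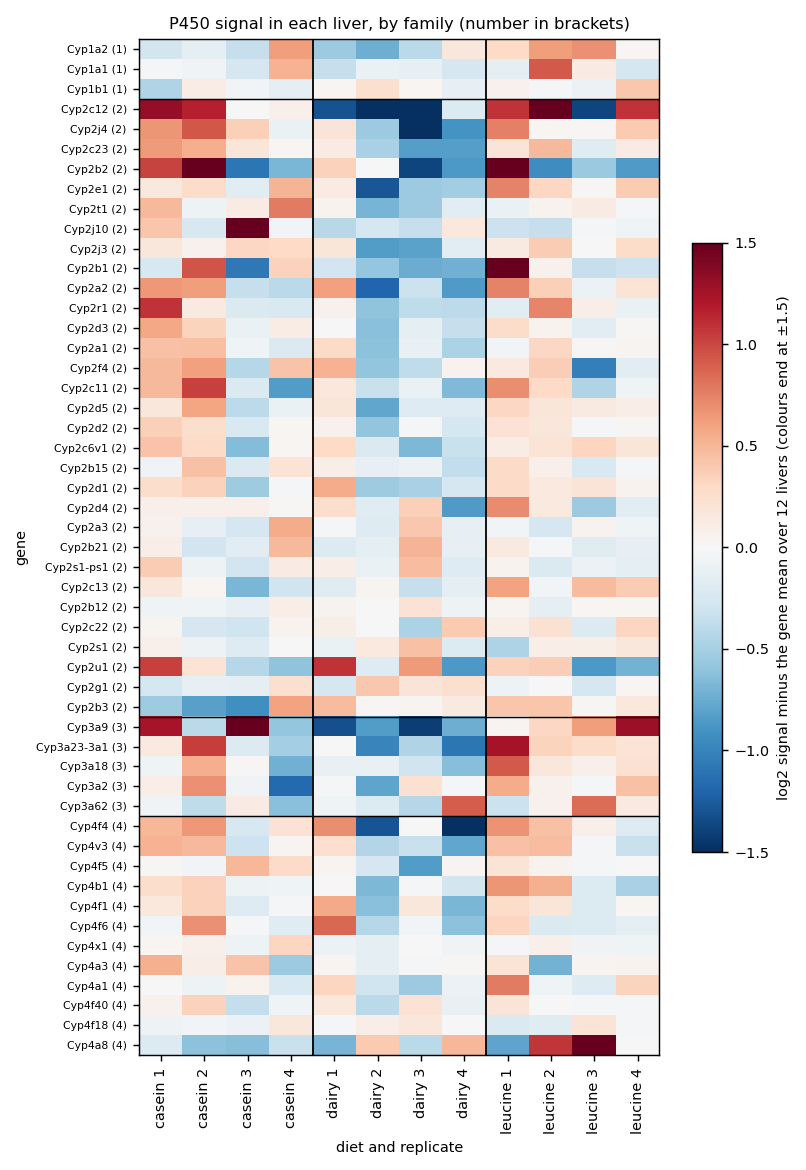
Signal of all 51 P450 genes in each of the 12 livers, as the log2 difference from the gene's mean over the 12; colours end at ±1.5, and black lines part the diets and the 4 families. Blue cells gather in dairy replicates 2 to 4, and dairy replicate 1 looks unlike them, being the highest dairy array for 29 of 51 genes.

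With leucine, the P450 genes lay about where they were with casein. Of the 51 members 26 were lower and 25 higher, and the median difference was -0.003, against -0.03 over all probe sets. That split moved with the scaling of the arrays: 21 members were lower after quantile normalization and 16 after centring of each array on its median. Over the members the mean difference was 0.06, above 0 where the median was below it, and likewise the median of family 4 was -0.04 (0.02 after centring) and its mean 0.04. No member and no probe set passed the adjusted threshold in limma (0%). At an unadjusted p under 0.05, 2 members were higher, or 3.92% against 1.39% of all probe sets, and none was lower (1.92% of all). In no member did the arrays of the 2 diets lie apart (1.38% of all probe sets lower and 1.06% higher).

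The 2 genes were Cyp2c13 and Cyp2b3. Cyp2c13, a male-specific steroid hydroxylase, read 11.36, 11.22, 10.50 and 10.88 with casein, 11.00, 11.22, 10.83 and 11.05 with dairy, and 11.78, 11.14, 11.66 and 11.57 with leucine. Of the leucine arrays 3 lay above all others. The difference between leucine and casein was 0.55 ± 0.20 (SE), with an unadjusted p of 0.0179 and an adjusted p of 0.999 in limma. For Cyp2b3, described above, it was 0.67 ± 0.28 (SE, adjusted p 0.999). The next smallest p was that of Cyp4a8, with 0.95 ± 0.45 (adjusted p 0.999). Without casein replicate 3 no member was higher at an unadjusted p under 0.05, where 1.66% of all probe sets were. Without casein replicate 4 there were 2 lower, where 5.17% of all probe sets were.

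Family 3 had higher means with leucine than with casein in 5 of 5 members, with a median of 0.39 and none at an unadjusted p under 0.05. That median was 0.18 without casein replicate 4, 0.23 without leucine replicate 1 and 0.60 without casein replicate 2. The differences were 0.06 for Cyp3a9, 0.36 for Cyp3a2, 0.39 for Cyp3a23-3a1, 0.41 for Cyp3a18 and 0.42 for Cyp3a62, each with a standard error of 0.26 or more. The sign for Cyp3a9 turned without casein replicate 2, casein replicate 4 or leucine replicate 4, and that for Cyp3a2 with array weights. All 5 measured male-biased genes also had higher means with leucine, with a median of 0.36, and they share Cyp3a2 and Cyp3a18 with family 3. The lowest of these differences, 0.01 for Cyp2c11, ran from -0.46 to 0.31 over the alternatives. Family 1 was higher in 3 of 3 members, where Cyp1a2 had the largest difference, 0.45 ± 0.25 (SE), and Cyp1a1 turned sign without leucine replicate 2 (-0.15).

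Leucine and dairy were then set against each other, a comparison that shares its 4 dairy arrays with that of dairy and casein. Of the 51 members 40 were higher with leucine and 11 lower, and the median difference was 0.35 (0.22 without dairy replicate 2), against -0.01 over all probe sets. No member and no probe set passed the adjusted threshold in limma (0%). At an unadjusted p under 0.05, 10 members were higher, 19.6% against 3.65% of all probe sets, and none was lower (3.30% of all). In 3 members every leucine array lay above every dairy array (5.88% against 2.04% of all probe sets), and in none was it the reverse (3.04% of all). Without dairy replicate 1 the members higher at that threshold numbered 19, where 4.34% of all probe sets were. With estimated array weights they numbered 24, where 6.32% of all were. As with casein, level moved with the difference: 32 of the 35 members above the median signal were higher, with a median of 0.43, where the median over all such probe sets was 0.09.

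The 3 members without overlap all belonged to family 3. Cyp3a9 was 3.12-fold higher with leucine than with dairy (1.64 ± 0.48 SE), Cyp3a23-3a1 2.22-fold (1.15 ± 0.35) and Cyp3a18 1.56-fold (0.64 ± 0.26), with adjusted p of 0.657, 0.657 and 0.683 in limma. All 5 members of the family had higher means, with a median of 0.64. At an unadjusted p under 0.05 in family 2, the largest differences were those of Cyp2c12, 4.46-fold (2.16 ± 0.66 SE), Cyp2j4, 2.09-fold (1.06 ± 0.36), and Cyp2e1, 1.89-fold (0.92 ± 0.27). Cyp2c23 (0.66 ± 0.23), Cyp2j3 (0.60 ± 0.21) and Cyp2c13 (0.51 ± 0.20) followed.

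Cyp1a2 was 1.73-fold higher with leucine than with dairy (0.79 ± 0.25 SE, adjusted p 0.657), and its dairy replicate 4 lay inside the leucine range. Family 1 was higher in 3 of 3 members with a median of 0.36, family 2 in 23 of 31 with a median of 0.32, and family 4 in 9 of 12 with a median of 0.26 and none at an unadjusted p under 0.05. With 1 array left out these medians were as low as 0.11 in family 1 (without leucine replicate 2), 0.21 in family 2 and 0.14 in family 4 (both without dairy replicate 2). The list of genes inducible through CAR and PXR was higher in 8 of 8 measured members, with a median of 0.62 and 3 at an unadjusted p under 0.05. Of all 15310 probe sets 7346 were higher, and 3.65% were at that threshold. This list includes the 5 Cyp3a members, and its 3 genes at that threshold were Cyp3a9, Cyp3a23-3a1 and Cyp3a18, given above for family 3. Within the list Cyp2b2 turned from 0.60 to -0.30 without leucine replicate 1.

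The proteins that serve or control P450 enzymes are given from lists, none of whose genes passed the adjusted threshold in dairy against casein. Over all 15310 probe sets 53.1% were lower and the median was -0.02. At an unadjusted p under 0.05, 6.32% of them were lower and 4.59% higher. Of 18 measured receptors and growth hormone regulators 13 were lower and 5 higher, with 2 at an unadjusted p under 0.05 in each direction and a median of -0.10. Ahrr, the repressor of AHR, was higher by 0.53 ± 0.17 (SE, adjusted p 0.323) and Cebpa, a hepatocyte transcription factor, by 0.84 ± 0.28 (adjusted p 0.327). Of 12 measured electron donors and enzymes of heme synthesis 7 were lower, 2 of them at an unadjusted p under 0.05. These were Uros, an enzyme of heme synthesis (-0.91 ± 0.25, adjusted p 0.257), and Pgrmc1, a heme protein that binds P450 enzymes (-0.43 ± 0.20, adjusted p 0.450).

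Of 10 measured CAR and PXR targets outside the P450 family 9 were lower with dairy, with a median of -0.45 and 1 at an unadjusted p under 0.05. Over all probe sets 53.1% were lower, and 6.32% were lower at that threshold. Ugt2b1, which glucuronidates steroids and drugs, differed by -1.94 ± 0.46 (SE, adjusted p 0.176), and Abcb1a, a drug efflux pump, by -0.93 ± 0.49. Of 15 measured PPAR-alpha targets outside the family 10 were lower, with a median of -0.28 and 3 at that threshold, led by Ehhadh and Acadm, both enzymes of fatty acid oxidation (-1.06 ± 0.28 and -0.67 ± 0.28). The 3 measured AHR targets were lower in 1 and higher in 2. Among them Ahrr, which is also in the list of receptors, and Aldh3a1, an aldehyde dehydrogenase (0.23 ± 0.20), had the smallest p. The lists are not separate: as chosen, that of CAR and PXR targets shares Por and Alas1 with the electron donors and heme enzymes. It shares Gsta2 with the AHR targets.

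Liver holds several cell types, and in bulk RNA fewer cells of a type and less RNA per cell cannot be told apart. Of 13 hepatocyte markers 10 were lower with dairy than with casein, with a median of -0.11 and 1 at an unadjusted p under 0.05. Over all probe sets 53.1% were lower, and 6.32% were lower at that threshold. Ahsg differed by -0.49 ± 0.18 (SE), Apoa1 by -0.34 ± 0.19, and Alb, at 13.78 with casein and 13.67 with dairy, by -0.11. The list's median departure from each gene's mean over the 12 arrays ran from -0.06 to 0.21 in casein arrays, from -0.16 to 0.15 in dairy arrays and from -0.10 to 0.11 in leucine arrays.

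Over all 15310 probe sets, 7173 were higher with dairy than with casein, and 4.59% were higher at an unadjusted p under 0.05. All 11 measured neutrophil markers were higher with dairy, with a median of 0.60. At that threshold there was 1, Ncf1 (1.02 ± 0.40 SE), next to Itgam (0.91 ± 0.63). The list's median departure ran from -1.21 to 0.90 in casein arrays, from -0.75 to 1.49 in dairy arrays and from -1.07 to 0.94 in leucine arrays. Of 20 measured acute phase proteins, which inflammation raises in liver, 16 were higher with dairy, with a median of 0.15 and 1 at that threshold, Apcs (0.56 ± 0.19), followed by Orm1 (1.00 ± 0.47). That list ran from -0.60 to 0.25 in casein arrays, from -0.27 to 0.38 in dairy arrays and from -0.50 to 0.29 in leucine arrays. Of 10 stellate cell markers 8 were higher, with a median of 0.35 and 1 at that threshold, Des (0.70 ± 0.31), next to Pdgfrb (0.34 ± 0.17), and the list ran from -0.38 to 0.04, -0.17 to 0.67 and -0.16 to -0.04 in casein, dairy and leucine arrays.

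Markers of Kupffer cells were lower in 7 of 12, of lymphocytes in 5 of 11, of endothelial cells in 5 of 7, of cholangiocytes in 5 of 6 and of erythroid cells in 1 of 7. Of all probe sets 53.1% were lower. The smallest p belonged to Cd163 (-0.71 ± 0.32 SE) and Csf1r (0.50 ± 0.26) among Kupffer cell markers, and to Cd8b (0.26 ± 0.19) and Cd2 (0.24 ± 0.21) among those of lymphocytes. In endothelial cells they were Cdh5 (0.41 ± 0.16) and Pecam1 (-0.38 ± 0.22), in cholangiocytes Epcam (-0.57 ± 0.19) and Cftr (-0.16 ± 0.14), and in erythroid cells Hbb (1.07 ± 0.43) and Hbb-b1 (0.82 ± 0.39). Quantile normalization turned the median of the Kupffer cell list from -0.07 to 0.004. The part of these cell types in the P450 differences was not tested. With the acute phase level of each array as a covariate, 36 of 51 P450 members were lower with dairy than with casein, where 39 were without it.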

How the data were processed

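RNA from 12 rat livers, 4 for each diet, was measured on 12 arrays. The authors deposited log2 values made in Affymetrix Expression Console (source: the submitters' processing notes), 1 per array and probe set. Which version, normalization and build they used is not given in the sources used here. Medians of the columns ran from 4.432 to 4.616. Precision is limited by how few arrays there are.

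Diets were read from the labels. Gene names came from the platform annotation, and 323 probe sets with several symbols and 13581 not listed there were left out. limma 3.58.1 (R 4.3.3) fitted 3 diet means to the other 15310, without a filter on low values, and eBayes moderated the spread (9 residual and 3.448 prior degrees of freedom). The p-values are two-sided, adjusted by Benjamini-Hochberg over all 15310, with a threshold of 0.05. The fit was tested on simulated data. The labels do not say that samples of a diet were reared apart, so p-values cover the spread between these samples, which may be technical in part.

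The members, gene lists and tests were chosen with earlier results of these data known. Full values are given for up to 8 members per comparison with the smallest unadjusted p under 0.05 (or the 3 smallest) and for 27 measured key P450 genes of 29 listed, and from each other list the 2 genes with the smallest p are named in dairy against casein. Other members were named after their values were seen. Cyp2c7 and Cyp4a2, the other key genes, were not analysed here.

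Alternatives were quantile normalization, array centring, all 29214 probe sets, no dim probe sets, array weights, a trended and robust eBayes, 1 probe set per gene, an acute phase covariate, the replicate number as a block, each array left out, and only the 2 diets compared. Leaving out both arrays of narrowest spread was chosen after seeing the data. The main fit took no samples as paired. Samples of the same number deviated together in leucine and casein (correlations 0.375, 0.380, 0.532 and 0.208), each over 0.1. Yet arrays of unlike number correlated from -0.599 to 0.632 there, and leucine replicate 1 correlated most with casein replicate 2. These correlations therefore cannot tell whether the numbers pair these diets. Samples of the same number did not all deviate together in dairy and casein (0.502, -0.505, -0.501 and -0.106) or leucine and dairy (0.590, -0.304, -0.285 and 0.362). Promoter sequences came from RefSeq entries of build GRCr8, matched by Entrez gene identifier, and the 7 members without an entry are Cyp1a1, Cyp2a2, Cyp2c6v1, Cyp2s1-ps1, Cyp4a1, Cyp4f4 and Cyp4v3.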

Additional observations from a re-analysis of the deposited data

Results flagged for a closer look

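Within the 4 arrays of a diet, 1 array stood far from the other 3 in 10 of the 153 groups looked at (51 genes in 3 diets) at the 95% critical value of Dixon's test. Chance gives about 1 such group in 20. Leucine replicate 1 was that array in 6 genes. It was the highest leucine array for Cyp2b1 (6.50, the next at 3.63), Cyp2b2 (8.49, the next at 5.12), Cyp3a23-3a1 (11.0, the next at 10.1), Cyp4f6 (7.75, the next at 7.29) and Cyp4f40 (3.37, the next at 3.18), and the lowest for Cyp2s1 (3.30, the next at 3.84). Leaving it out moved the difference between leucine and dairy from 1.15 to 0.90 for Cyp3a23-3a1.

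Casein replicate 2 was the highest casein array for Cyp4f6 (8.11, the next at 7.39). Casein replicate 4 was the lowest for Cyp2d4 (7.33, the next at 7.38), where all 4 casein arrays lay within a narrow range. Dairy replicate 3 was the highest dairy array for Cyp2b21 (3.39, the next at 2.75), and leucine replicate 2 the lowest leucine array for Cyp2b12 (3.10, the next at 3.27), both at low signal.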

How the results depend on the processing

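The direction of the median over the P450 members held under every alternative run for dairy minus casein and leucine minus dairy. Against casein with dairy, each array left out in turn gave 0 to 1 members past the adjusted threshold, 6 to 14 lower and 0 to 1 higher at an unadjusted p under 0.05, and medians of -0.43 to -0.16 over all members and -0.34 to -0.0860 over family 4. The extremes of 14, -0.43 and -0.34 came without dairy replicate 1. Over all probe sets, arrays left out gave 3.03% to 12.4% lower and 3.08% to 8.74% higher at that threshold. With array weights 11 members passed the adjusted threshold, 23 were lower and 2 higher, where 16.7% and 12.6% of all probe sets were. The medians were then -0.49 over all members, -0.61 in family 2, -0.70 in family 3 and -0.33 in family 4. Without both arrays of narrowest spread 1 passed (Cyp2b3) and 1 was higher (7.58% of all), as 1 was after quantile normalization (6.12% of all). Cyp2c23, Cyp2j4, Cyp2c12 and Cyp3a9 stayed at an unadjusted p under 0.05 in all 23 alternatives, and Cyp4f5 in 8 of 22. For leucine minus casein, arrays left out gave 0 to 2 lower (1.27% to 5.17% of all probe sets) and 0 to 3 higher (0.954% to 3.70%). The acute phase covariate gave 1 lower (2.46% of all), and only the 2 diets compared gave 1 higher (1.51% of all). For leucine minus dairy, arrays left out gave 0 to 1 lower (2.44% to 4.13% of all) and 8 to 19 higher (2.05% to 5.67%). Family 1 medians were then 0.11 (without leucine replicate 2) to 0.51. Array weights gave 1 lower (7.71% of all) and 24 higher (6.32%). Leaving out dim probe sets gave a family 1 value of 0.79, which is that of Cyp1a2, the only family 1 member left.

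The sign turned under at least 1 alternative in 12 of 51 members for dairy minus casein, 29 for leucine minus casein and 14 for leucine minus dairy. Of the differences named in the text, it turned for dairy minus casein in Cyp3a2 (0.0715 with the acute phase covariate, -0.40 to 0.22 with arrays left out), Cyp2c13 (-0.0358 with array weights, -0.13 to 0.16), Cyp4a1 (-0.25 to 0.0423), Cyp2d4 (-0.32 to 0.0857) and Cyp2c22 (-0.0186 to 0.27), and for leucine minus dairy in Cyp2b2 (-0.30 to 0.95). For leucine minus casein it turned in Cyp3a9 (-0.0303 with the covariate, -0.31 without both arrays of narrowest spread, -0.31 to 0.48 with arrays left out), Cyp2c11 (-0.46 with array weights, -0.31 without both narrow arrays, -0.31 to 0.31), Cyp1a1 (-0.15 to 0.27) and Cyp3a2 (-0.0321 with array weights). The cause of these shifts was not tested.

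The fit with the replicate block groups arrays by number, a pairing that the labels do not state. Correlations do not settle it for leucine and casein, where arrays of unlike number correlated by up to 0.632. That fit gave 2 members higher for leucine minus casein (1.57% of all probe sets) and 0 past the adjusted threshold. For dairy minus casein it gave 10 lower (7.56% of all), and for leucine minus dairy 12 higher (4.65% of all). In these 2 comparisons same-numbered arrays did not all deviate together. It brought no member past the adjusted threshold, and moved the probe sets past it over the whole table from 13 to 19 for dairy minus casein and from 0 to 1 for leucine minus dairy. Intervals of 1 or more log2 units to either side, as for Cyp2b2, Cyp2c12 and Cyp3a9, show how little 4 arrays a diet can resolve, and a log2 difference understates changes of genes near the background, such as Cyp1a1, Cyp1b1 and Cyp2b1.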

Other observations

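Some P450 genes are known mainly from organs other than liver. The probe sets of Cyp2a3 and Cyp2f4 (lung and nose), Cyp2g1 (olfactory tissue), Cyp2b12 (sebaceous glands) and Cyp4x1 (brain) gave the following values. Cyp2g1 read 3.48 to 3.99 with casein, 3.50 to 4.15 with dairy and 3.50 to 3.78 with leucine, and Cyp4x1 2.59 to 2.99, 2.53 to 2.67 and 2.60 to 2.74. Cyp2b12 kept within 3.10 to 3.47 and Cyp2a3 within 3.04 to 3.85 over the 12 arrays. Cyp2f4 spread over a wider range, 7.15 to 8.78, with its lowest value in leucine replicate 3 and its highest in casein replicate 2.

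Cyp2u1, a fatty acid hydroxylase, read 5.71, 4.89, 4.25 and 4.08 with casein, 5.77, 4.48, 5.32 and 3.82 with dairy, and 5.03, 5.05, 3.82 and 3.98 with leucine, a spread within each diet that was larger than any difference between their means. Cyp2c22, which hydroxylates retinoic acid, lay between 11.65 and 12.52 in all 12 livers.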
